A study of Homo sapiens with 12 samples.

Results

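Drug efflux ABC transporters are membrane pumps that use ATP to move cytotoxic drugs and drug conjugates out of cells. The group described here holds 8 genes, ABCB1, ABCB5, ABCC1, ABCC2, ABCC3, ABCC4, ABCC5 and ABCG2, of 58307 named rows in the count table. They were chosen by name, and each of the 8 symbols was found on exactly 1 row. RNA was measured in A375 and SK-MEL-28, established human melanoma cell lines, after etoposide alone or etoposide + rapamycin. Etoposide poisons topoisomerase II, and rapamycin inhibits mTOR and is widely used to induce autophagy. The 12 libraries, 3 in each of 4 groups, held 28190672 to 32499659 counts each. All groups carried etoposide, and no library without etoposide was analysed here, so each rapamycin comparison is of etoposide + rapamycin with etoposide. Doses and times of the sequenced cells are not given in the sources used here, and each line stands for 1 tumour.

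ABC transporters share a nucleotide-binding domain that hydrolyses ATP and membrane-spanning helices that form the path of the substrate. ABCB1 (P-glycoprotein) and ABCG2 (breast cancer resistance protein) export mostly unmodified, bulky drugs, while the ABCC proteins (multidrug resistance-associated proteins) export organic anions and conjugates with glutathione, glucuronate or sulphate. Etoposide is a known substrate of ABCB1 and of ABCC1, ABCC2 and ABCC3, and ABCB5 has been studied as a marker of a drug-tolerant subpopulation in melanoma.

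The lineage of the libraries was checked on marker genes before the pumps were read. SOX10, a neural crest factor, reached 432 ± 57.8 CPM (library-size-scaled counts, ± SD, n = 3) in A375 and 341 ± 59.3 in SK-MEL-28, both with etoposide, and S100B reached 87.4 ± 7.67 and 98.1 ± 7.14 CPM. The pigment genes were near 0 in both lines. With etoposide, MLANA stood at 0.944 CPM in A375 and 1.20 in SK-MEL-28, PMEL at 2.02 and 1.87, TYRP1 at 0.570 and 1.53, DCT at 0.714 and 1.75, and TYR at 0.0889 and 0.0420. MITF, the master regulator of the lineage, was lower with rapamycin in both lines, by 0.51 and 0.50 (log2) in A375 and SK-MEL-28 (adjusted p = 0.00248 and 0.00320 by edgeR), and its part in the results below was not tested. Of 7 markers of this lineage tested, 3 fell in A375 without a fold threshold (MITF, DCT and S100B), against 13.8% of all genes, and 1 in SK-MEL-28 (MITF), against 10.1%. DCT, a melanin enzyme, went from 0.720, 0.824 and 0.596 CPM to 0.210, 0.202 and 0.235 in A375 (log2 fold change -1.70, adjusted p = 0.0106 by edgeR), while SK-MEL-28 had group means of 1.75 and 1.89 CPM. The A375 values of DCT are mean counts of 21 and 6.33, which are low counts. S100B went from a mean of 87.4 to 58.4 CPM in A375 (log2 fold change -0.58, adjusted p = 4.13e-05 by edgeR), without overlap, while in SK-MEL-28 the libraries overlapped. The responses of DCT and S100B differed between the lines by 1.82 and 0.42 (log2, adjusted p = 0.0257 and 0.0354 by edgeR), so 2 of 7 were called for that difference, beside 5.62% of all genes. Here and below that share stands for 1130 genes, a number that was 594 to 1315 with each library left out. The part of DCT and S100B in the difference of ABCC2 between the lines, described below, was not tested. The whole list, led by SOX10, summed to 552, 597 and 480 CPM with etoposide and 655, 399 and 593 with rapamycin in A375, and to 448, 425 and 549.5 against 294, 397 and 525 in SK-MEL-28, with overlapping groups in both lines. Of the markers of other cell types, the leukocyte genes PTPRC, CD3E and CD14 and the hepatocyte gene ALB did not exceed 0.458 CPM in any group mean, while KRT10 of the keratinocyte list lay between 48.9 and 57.1 CPM and KRT5 and KRT1 were near 0. KRT14, a basal keratin of that list, had group means of 9.80 and 8.83 CPM in A375 with etoposide and with etoposide + rapamycin, and of 6.86 and 5.28 CPM in SK-MEL-28. It was lower in SK-MEL-28 with no overlap of libraries, by -0.51 (log2, adjusted p = 0.00458 by edgeR) with etoposide and by -0.75 (adjusted p = 0.00235) with rapamycin, and its part in the comparisons of the lines was not tested. The endothelial list (PECAM1, CDH5 and VWF), led by PECAM1, summed to 9.36, 6.69 and 8.74 CPM with etoposide and 6.26, 6.59 and 5.83 with rapamycin in A375, and to 5.98, 4.69 and 5.13 against 3.48, 3.96 and 3.86 in SK-MEL-28. In both lines the rapamycin libraries were the lower ones, PECAM1 was called in SK-MEL-28 (log2 fold change -0.70, adjusted p = 0.0488), CDH5 did not exceed 0.590 CPM in any group mean, and the part of this list in the results below was not tested.

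The libraries labelled A375 and those labelled SK-MEL-28 were much alike. Genes are not independent replicates, but over 20101 of them the mean log2 levels of the lines had a Pearson correlation of 0.985 with etoposide and 0.983 with etoposide + rapamycin. Only 119 of these genes, 0.592%, differed more than 4-fold between the lines with etoposide. SK-MEL-28 is known as a line that expresses pigment genes such as MLANA, PMEL and TYR, which were near 0 here, and in a check for mixed-up samples 6 of the 12 libraries did not match a recorded feature of the line on their label. A line can lose such a feature, so this check cannot by itself tell a mix-up from a loss. Taken with the likeness of the libraries and the pigment genes, it leaves the identity of the libraries labelled SK-MEL-28 in doubt, and the question was not settled here. Below, A375 and SK-MEL-28 stand for the libraries so labelled, and a difference between them is a difference between 2 sets of libraries that may not be those lines.

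To set the pumps side by side, CPM were divided by the exonic length of each gene in kilobases. ABCC2, which in liver exports bilirubin glucuronides into bile, had the highest level per length in all 4 group means, although in A375 with etoposide + rapamycin its libraries overlapped those of ABCC3, and ABCC3 ranked above it there when the longest transcript was taken as length. It held 18.3 ± 0.119 CPM per kb in A375 with etoposide, 12.7 ± 0.101 with etoposide + rapamycin, and 34.5 ± 1.21 and 33.8 ± 1.01 in SK-MEL-28 (SD, n = 3 throughout). In A375 with etoposide the order below it was ABCC1 (9.37), ABCC3 (8.67), ABCC4 (4.56), ABCC5 (4.55), ABCB1 (1.29) and ABCG2 (0.484 CPM per kb), and the libraries overlapped only between the neighbours ABCC4 and ABCC5. In SK-MEL-28 with etoposide ABCC5 (9.37) stood above ABCC3 (8.35) and ABCC4 (5.36), and ABCG2 (0.760) above ABCB1 (0.510 CPM per kb), with no overlap between neighbours. This order rests in part on the length used: with the longest transcript in place of all exonic bases, 22 of the 32 ranks of a gene in a group were kept.

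**Figure D1:**
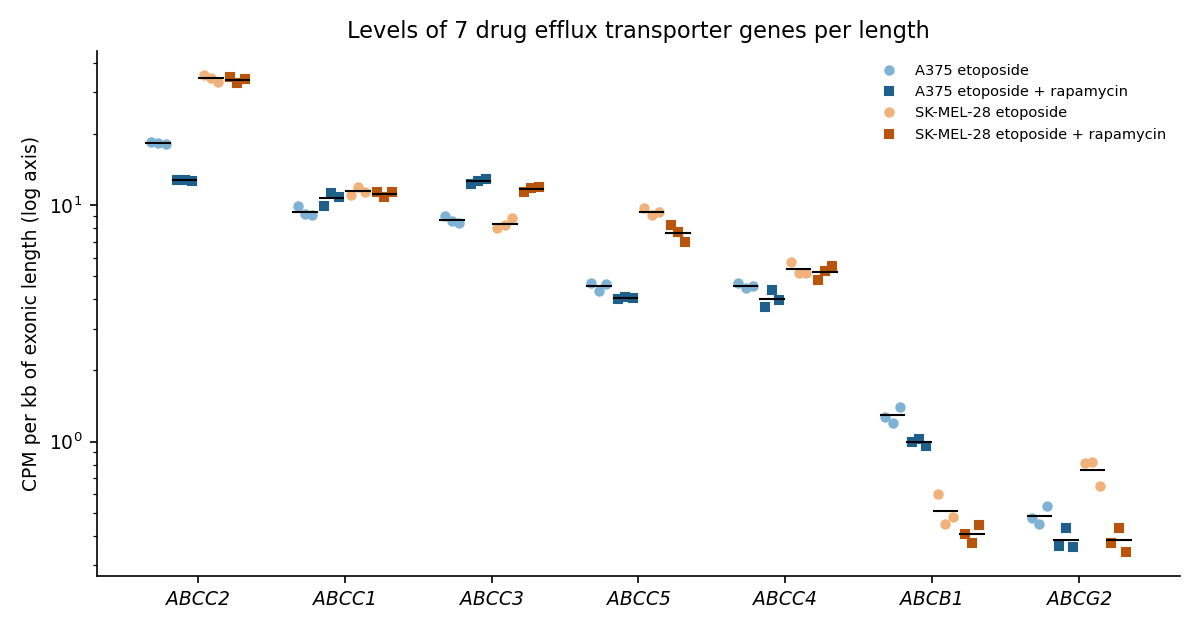
Level per length of 7 efflux genes in each library (CPM per kb of exonic length, log axis), with circles for etoposide, squares for etoposide + rapamycin and a black line at each mean of 3 libraries. ABCC2 had group means between 12.7 and 34.5 CPM per kb, the highest of the 7 except that ABCC3 overlapped it in A375 with etoposide + rapamycin and ranked first there by longest transcript, ABCB1 and ABCG2 lay at or below 1.40 in every library, and ABCB5 is left out because most of its counts were 0.

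ABCB5 was close to undetected. It had 0 counts in all 6 etoposide libraries. With etoposide + rapamycin it had 0, 4 and 0 counts in A375, and SK-MEL-28 had 2, 0 and 2. No fold change is given at such counts. The gene did not pass the expression filter and was not tested. The other 7 members passed it in every comparison.

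In the account that follows, a gene rose or fell where edgeR's quasi-likelihood test gave a Benjamini-Hochberg adjusted p under 0.05 over all genes tested, and it was called where it also changed more than 1.5-fold. In A375, 0 of the 7 tested efflux genes were called with rapamycin, where 5.89% of all 18844 genes tested were called. Without the fold threshold 5 of 7 passed, against 28.1% of all genes, and this count was 2 without etoposide + rapamycin replicate 3 or etoposide replicate 3, 4 without etoposide replicate 2 and 3 without any other A375 library. Of these, 2 rose, against 14.3%, and 3 fell, against 13.8%. By unadjusted p under 0.05 there were 6 of 7. The share of all genes at that threshold is not given here, so this count is not read as a result about these genes. The 3 libraries of one treatment did not overlap those of the other in 7 of 7, against 42.6% of all genes. In SK-MEL-28, 1 of 7 was called, against 4.99% of 18897 genes, and 3 of 7 passed without the fold threshold, against 19.0%. Of these, 1 rose, against 8.83%, and 2 fell, against 10.1%. There the libraries did not overlap in 4 of 7, against 35.9% of all genes. The 7 had a median log2 fold change of -0.18 with rapamycin in A375, while SK-MEL-28 gave -0.05, beside -0.01 and 0.01 over all genes tested.

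**Figure D2:**
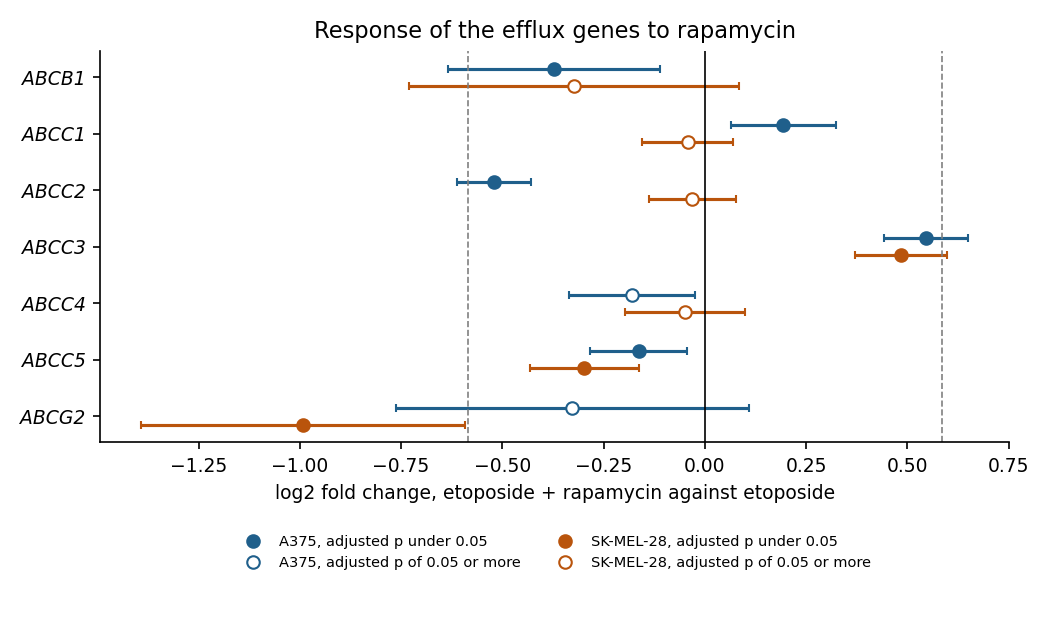
Log2 fold change of 7 efflux genes, etoposide + rapamycin against etoposide, with 95% confidence intervals from edgeR, A375 in blue and SK-MEL-28 in orange, filled where the adjusted p was under 0.05. Dashed lines mark a fold change of 1.5 either way. ABCC3 lay to the right of 0 in both lines (0.55 and 0.48), ABCC2 lay at -0.52 in A375 and -0.03 in SK-MEL-28, and ABCG2 in SK-MEL-28 lay past the dashed line at -0.99.

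The genes that fell in at least 1 line and have a promoter entry in RefSeq are ABCB1, ABCC2, ABCC5 and ABCG2. Their 250 bases before the start of the canonical transcript (GRCh38.p14, 5′ to 3′ on the strand of the gene) are shown so that these genes can be set side by side. Capitals mark ACGTG and GCGTG, both forms of the core of the hypoxia response element, on either strand, and GCGTG is also the core of the aryl hydrocarbon receptor element. The windows are chr10:99782390-99782639 (plus strand) for ABCC2, chr3:184017885-184018134 (minus) for ABCC5, chr4:88158640-88158889 (minus) for ABCG2 and chr7:87600885-87601134 (minus) for ABCB1.
ABCC2: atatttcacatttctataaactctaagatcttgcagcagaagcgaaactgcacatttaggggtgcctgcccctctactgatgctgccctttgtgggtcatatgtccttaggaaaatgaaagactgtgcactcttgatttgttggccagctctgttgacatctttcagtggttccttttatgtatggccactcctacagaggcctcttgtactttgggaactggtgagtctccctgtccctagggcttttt
ABCC5: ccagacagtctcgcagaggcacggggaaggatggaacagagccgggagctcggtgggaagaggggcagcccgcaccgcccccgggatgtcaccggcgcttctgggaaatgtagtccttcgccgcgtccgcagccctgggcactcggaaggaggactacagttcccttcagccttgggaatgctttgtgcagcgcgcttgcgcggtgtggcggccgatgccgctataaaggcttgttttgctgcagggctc
ABCG2: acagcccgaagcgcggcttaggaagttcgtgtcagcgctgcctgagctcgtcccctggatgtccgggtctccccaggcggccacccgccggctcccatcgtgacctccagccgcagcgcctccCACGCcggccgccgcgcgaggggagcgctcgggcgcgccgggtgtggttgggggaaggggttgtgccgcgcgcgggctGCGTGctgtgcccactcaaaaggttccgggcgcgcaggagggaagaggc
ABCB1: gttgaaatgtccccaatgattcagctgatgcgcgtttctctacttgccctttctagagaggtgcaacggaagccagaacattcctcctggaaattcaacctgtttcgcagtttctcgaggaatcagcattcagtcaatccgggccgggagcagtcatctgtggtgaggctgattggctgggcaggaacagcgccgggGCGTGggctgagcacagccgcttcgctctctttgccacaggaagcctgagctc

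ABCG2 held 2 matches of GCGTG, which begin 127 and 49 bases before the start, and ABCB1 held 1, at 53 bases. ACGTG was in none of the 4 windows. Of 35116 RefSeq windows of the same length, 32.2% held GCGTG and 18.5% held ACGTG, so such a match is common. Of 3 further motifs searched on both strands, the GC box GGGCGG (in 42.6% of windows) occurred once in ABCC5, at 176 bases, and CCAAT (in 32% of windows) occurred at 238 and 79 bases in ABCB1, while the antioxidant element TGACNNNGC (in 10.9%) was in none of these 4. ABCC4, the other member with a promoter entry, passed the test in neither line, and its window is not shown. That window held GCGTG at 117 and 34 bases and the antioxidant element at 149 bases, so GCGTG was not particular to the genes that fell. The ABCC2 window held none of the 5 motifs and was 45.6% G and C, against 73.6% in ABCG2, 64.8% in ABCC5 and 55.6% in ABCB1. Matches of different motifs may overlap and were counted separately, and a match is a description, not a binding site.

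ABCC2 (chr10:99782640-99852594, plus strand) fell in A375, and its response there differed from that in SK-MEL-28. In A375 it stood at 144, 143 and 143 CPM in the etoposide libraries and at 100, 99.6 and 98.9 CPM with rapamycin. The groups lay well apart, and ABCC2 fell by 0.52 (log2, standard error 0.042, adjusted p = 3.61e-06), a decrease of 30.3% that stayed under the 1.5-fold threshold. In SK-MEL-28 the etoposide libraries held 279, 271 and 260 CPM and those with rapamycin 272, 256 and 267 CPM. These overlapped, and the log2 fold change was -0.03 with a 95% interval of -0.14 to 0.08 (adjusted p = 0.725). In a fit of all 12 libraries the response in SK-MEL-28 minus that in A375 was 0.50 (log2, standard error 0.058, adjusted p = 0.000125). ABCC2 was the 1 of 7 efflux genes called for this difference, at an adjusted p under 0.05 with no fold threshold, where 5.62% of 20101 genes were called. The difference was between 0.47 and 0.52, with adjusted p from 0.000173 to 0.000831, when each library was left out in turn.

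ABCC3 (chr17:50634777-50692253, plus strand), which sits on the basolateral side of epithelia and exports glucuronides, rose in both lines. In A375 it went from 86.9, 82.1 and 81.2 CPM with etoposide to 118, 122 and 124 with rapamycin, an increase of 0.55 (log2, standard error 0.048, adjusted p = 7.00e-06). In SK-MEL-28 it went from 77.0, 79.3 and 84.6 CPM to 110, 113 and 114, an increase of 0.48 (log2, standard error 0.052, adjusted p = 3.82e-05). Neither pair of groups overlapped, and both changes lay under 1.5-fold (1.46 and 1.40). The responses of the lines differed by -0.05 (95% interval -0.20 to 0.09, adjusted p = 0.728).

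The levels per length of ABCC2 and ABCC3 lay closer together with rapamycin in both lines. In A375 the ratio of ABCC2 to ABCC3 (CPM per kb) was 2.11 ± 0.0634 with etoposide and 1.01 ± 0.0323 with rapamycin, so that the libraries of the 2 genes overlapped in the second group. In SK-MEL-28 it was 4.14 ± 0.340 and 2.89 ± 0.136. The summed level of the 8 genes was 47.2 ± 1.13 CPM per kb with etoposide and 45.4 ± 1.25 with rapamycin in A375, and in SK-MEL-28 it was 70.3 with either treatment (69.0 to 71.6 and 69.1 to 71.3 over libraries), with overlapping libraries in both lines. ABCC2 made up 38.8% of that sum in A375 with etoposide and, over libraries, 27.3% to 29.1% with rapamycin, and ABCC3 18.4% and 27.8%. In SK-MEL-28 the shares were 49.0% and 48.1% for ABCC2 and 11.9% and 16.6% for ABCC3. These ratios and sums are descriptions and were not tested.

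**Figure D3:**
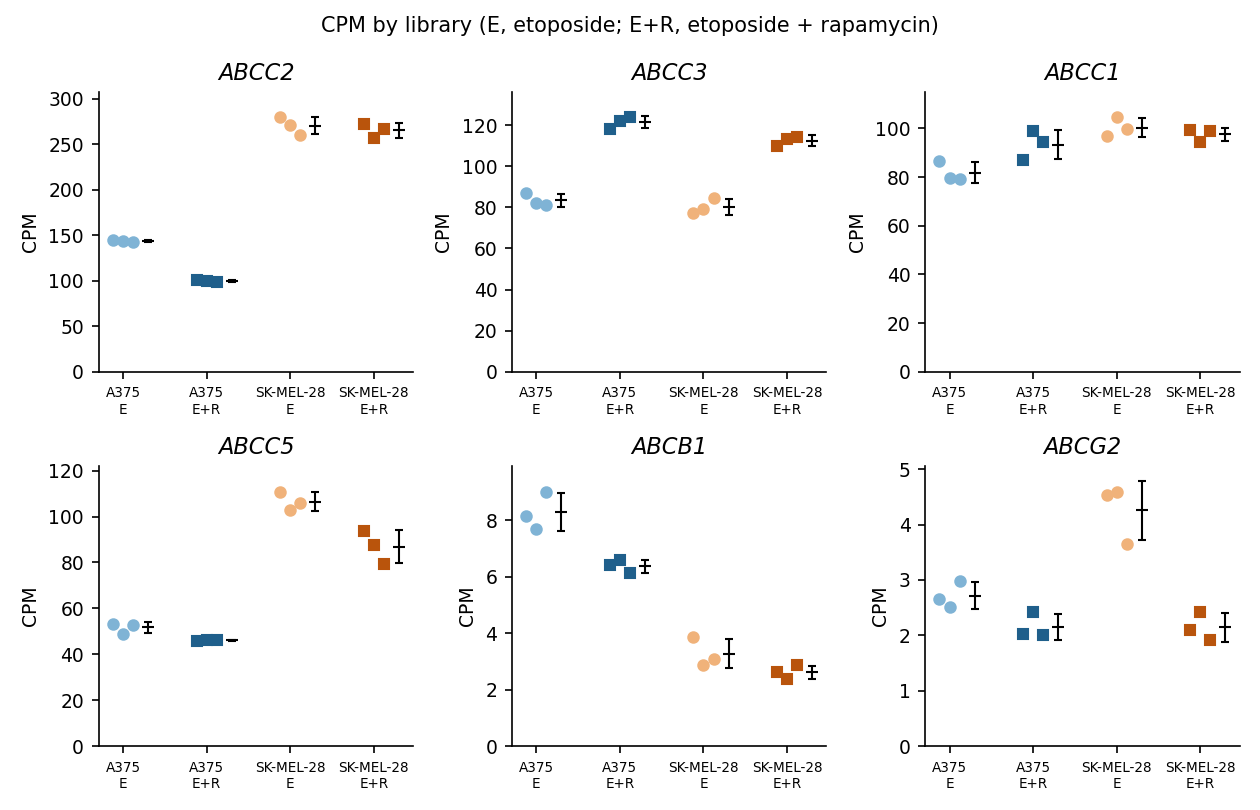
CPM of 6 efflux genes in each library, by group (E, etoposide; E+R, etoposide + rapamycin), with the mean and SD of 3 libraries in black beside the points and every axis starting at 0. ABCC2 in A375 dropped from about 143 to 100 CPM while in SK-MEL-28 its libraries overlapped between 256 and 279 CPM, and ABCG2 dropped from 4.26 to 2.15 CPM in SK-MEL-28.

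ABCG2 (chr4:88090150-88231628, minus strand), which works as a dimer and exports topotecan, mitoxantrone and urate, was the efflux gene called in SK-MEL-28. It stood there at 4.54, 4.59 and 3.64 CPM with etoposide and at 2.096, 2.43 and 1.92 with rapamycin, which are 139, 139 and 120 against 65, 68 and 59 counts. The groups did not overlap, and ABCG2 fell by 0.99 (log2, standard error 0.18, adjusted p = 0.00242), to 0.503 of its level with etoposide. The fall was called without each library in turn (adjusted p 0.00409 to 0.0140), but a test against a change of 1.5-fold, in place of a test against 0, gave an adjusted p of 0.335. In A375 the counts were 81, 73 and 85 with etoposide and 58, 72 and 60 with rapamycin. These were lower with rapamycin in each library, with a log2 fold change of -0.33 whose 95% interval ran from -0.76 to 0.11 (adjusted p = 0.256). The responses differed by -0.66 between the lines (95% interval -1.20 to -0.11), which did not pass the adjustment (adjusted p = 0.154).

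ABCC5 (chr3:183919934-184017939, minus strand), an exporter of cyclic nucleotides and nucleotide analogues, fell in both lines by modest amounts. In SK-MEL-28 it had 111, 103 and 106 CPM with etoposide and 93.7, 87.4 and 79.5 with rapamycin, with no overlap, and fell by 0.30 (log2, standard error 0.063, adjusted p = 0.00516). In A375 it had 53.2, 49.0 and 52.9 CPM against 45.8, 46.3 and 46.1, again with no overlap, and fell by 0.16 (log2, standard error 0.055, adjusted p = 0.0425). In A375 the adjusted p stayed under 0.05 without etoposide replicate 2 (0.0312) and was above it without any other A375 library (up to 0.134), with DESeq2 and its own filter (0.0904) and with the filter of 1 count in any 1 library (0.102). The antisense gene ABCC5-AS1 lies in the ABCC5 locus, and it had at most 5 counts in a library.

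ABCC4 (chr13:95019835-95301475, minus strand), which exports cyclic nucleotides, prostaglandins and nucleoside monophosphate analogues, did not pass the test in either line. It had 40.4, 38.4 and 39.1 CPM in A375 with etoposide and 32.0, 37.6 and 34.1 with rapamycin (log2 fold change -0.18, 95% interval -0.34 to -0.02, adjusted p = 0.0805). The groups did not overlap there. The adjusted p was under 0.05 without A375 etoposide + rapamycin replicate 2 (0.0395) and with library totals in place of TMM (0.0336). In SK-MEL-28 it had 49.6, 44.7 and 44.4 CPM against 41.7, 45.3 and 47.5, which overlapped (log2 fold change -0.05, 95% interval -0.20 to 0.10).

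ABCC1 (chr16:15949138-16143257, plus strand), which exports glutathione conjugates and many unconjugated drugs, rose slightly in A375. It had 86.7, 79.7 and 79.0 CPM with etoposide and 86.9, 98.7 and 94.3 with rapamycin (log2 fold change 0.19, standard error 0.059, adjusted p = 0.0276). The lowest rapamycin library lay just above the highest etoposide library. The adjusted p stayed under 0.05 without etoposide + rapamycin replicate 1 or etoposide replicate 1 and was above it, at most 0.116, without any other A375 library. It was also above 0.05 with library totals (0.0839) and with the filter of 1 count in any 1 library (0.0783), and below it with DESeq2 and its own filter (0.0168). The SK-MEL-28 libraries had 96.7, 104 and 99.6 CPM against 99.3, 94.4 and 98.9 (log2 fold change -0.04, 95% interval -0.15 to 0.07). The responses of the lines differed by -0.23, with an adjusted p of 0.107 by edgeR and 0.0375 by DESeq2 with its own filter, and of 0.0465 by edgeR without A375 etoposide replicate 1.

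ABCB1 (chr7:87503017-87713323, minus strand), the classic multidrug pump, was low in both lines. In A375 it stood at 8.15, 7.69 and 9.02 CPM with etoposide and 6.40, 6.59 and 6.13 with rapamycin. The groups did not overlap, and ABCB1 fell by 0.37 (log2, standard error 0.12, adjusted p = 0.0357). The adjusted p stayed under 0.05 without etoposide replicate 2 (0.0440) and was above it, at most 0.147, without any other A375 library, as it was with DESeq2 and its own filter (0.0922) and with the filter of 1 count in any 1 library (0.0822). In SK-MEL-28 it stood at 3.85, 2.87 and 3.10 CPM against 2.61, 2.39 and 2.86, a log2 fold change of -0.32 with a 95% interval of -0.73 to 0.09 (adjusted p = 0.270). The difference between the lines was 0.06 (95% interval -0.37 to 0.48). ABCB4, the bile phosphatidylcholine flippase next to ABCB1, is close to it in sequence, and the sources used here do not say how reads shared by such genes were counted.

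The pumps were then compared between the lines with the treatment held the same. With etoposide, 4 of 7 were called between the lines, where 13.0% of all genes were called. ABCC5 was higher in SK-MEL-28 by 1.04 (log2, standard error 0.059), ABCC2 by 0.92 (0.048) and ABCG2 by 0.65 (0.18), and ABCB1 was lower by 1.34 (log2 difference -1.34, 0.15), with adjusted p of 2.69e-08, 1.38e-08, 0.0134 and 2.14e-05. The ABCG2 difference lost its call without SK-MEL-28 etoposide replicate 1 (adjusted p = 0.0528) or 2 (0.0504). With etoposide + rapamycin, in libraries the etoposide comparison did not use, 3 of 7 were called, where 14.9% of all genes were called. These were ABCC2 (log2 difference 1.41, standard error 0.044, adjusted p = 3.67e-11), ABCC5 (0.91, 0.061, 6.76e-08) and ABCB1 (-1.28, 0.15, 2.06e-05). ABCG2 was at 2.15 CPM in either line with rapamycin (log2 difference -0.01, 95% interval -0.48 to 0.46), a value whose sign turned with library totals (0.00088). ABCC3 did not pass the test with either treatment (-0.05 and -0.11), although with rapamycin its adjusted p was 0.0495 with counts halved and 0.0470 with the replicate block. ABCC4 was higher in SK-MEL-28 by 0.23 and 0.37, both under 1.5-fold, the first with an adjusted p above 0.05 without A375 etoposide replicate 2 (0.0574) or SK-MEL-28 etoposide replicate 1 (0.0597), and ABCC1 was higher by 0.29 with etoposide, while with rapamycin its difference was 0.06 (adjusted p = 0.422). Lineage and other markers differed between the lines as well. Of the 7 melanocyte markers tested, 2 were called with etoposide, beside 13.0% of all genes, and both, DCT and TYRP1, were higher in SK-MEL-28 (1.29 and 1.42). With rapamycin 4 were called, beside 14.9%, with DCT (3.11), TYRP1 (1.54) and PMEL (0.61) higher and SOX10 lower (-0.71, with overlapping libraries). DCT and TYRP1 had low counts in A375 with both treatments. Of the endothelial list PECAM1 was called with both treatments, at 5.21 CPM in A375 against 2.23 in SK-MEL-28 with etoposide (log2 difference -1.22, adjusted p = 0.000251) and at 4.01 against 1.37 with rapamycin (-1.55, adjusted p = 3.19e-05). The part of these markers in the differences of the pumps was not tested. Each comparison sets 1 line against 1 line, so line and any batch of culture cannot be told apart, and the doubt about the identity of the libraries labelled SK-MEL-28 applies to all of these values.

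**Figure D4:**
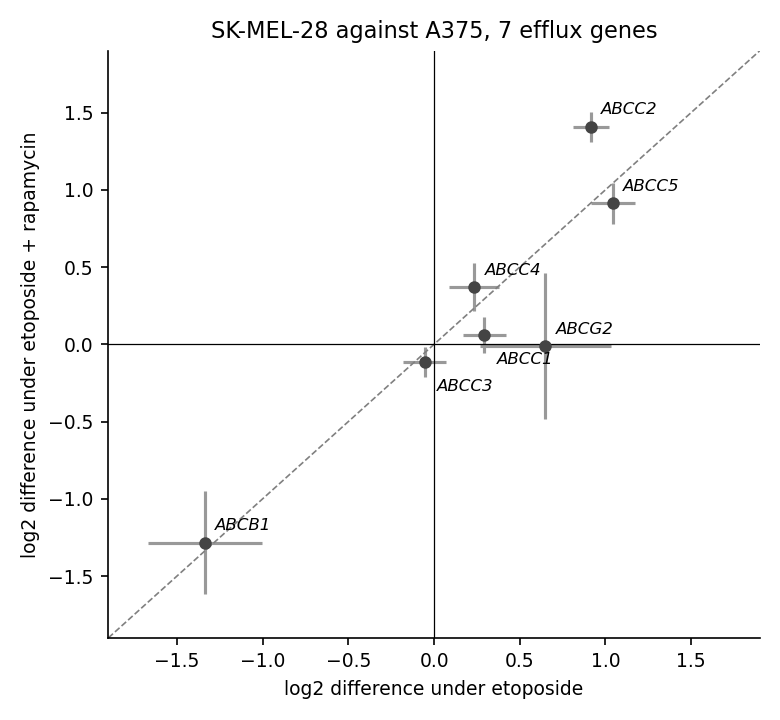
Log2 difference of SK-MEL-28 against A375 for 7 efflux genes with etoposide (x axis) and with etoposide + rapamycin (y axis), with 95% confidence intervals from edgeR and a dashed line of equality. ABCC2 lay above the line of equality (0.92 and 1.41), ABCG2 below it (0.65 and -0.01), and ABCB1 was lower in SK-MEL-28 with both treatments (-1.34 and -1.28).

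The other 40 ABC genes include lipid carriers, peptide pumps and ABC proteins that are not transporters. In A375, 33 of them were tested and 2 were called, both lower with rapamycin (6.06%, beside 2.80% of all genes called lower and 5.89% called in either direction). In SK-MEL-28, 32 were tested and 3 were called, all lower (9.38%, beside 3.14% and 4.99%). Without the fold threshold 4 rose and 6 fell in A375, against 14.3% and 13.8% of all genes. In SK-MEL-28, 1 rose and 6 fell, against 8.83% and 10.1%. ABCB9 went from a mean of 134 to 160 CPM in A375 and from 119 to 142 in SK-MEL-28. ABCA3 went from 8.11 to 12.0 and from 5.15 to 6.63 CPM. Neither gene was called, and for neither did the treatments overlap in either line. ABCA1, which loads cholesterol onto apolipoprotein, was called in both lines. It went from 45.1, 37.8 and 41.5 CPM to 21.6, 22.2 and 23.4 in A375, or -0.89 on the log2 scale (standard error 0.080, adjusted p = 8.56e-06), and from 37.3, 31.4 and 34.6 CPM to 19.5, 24.2 and 21.9 in SK-MEL-28, or -0.66 (0.094, adjusted p = 0.000340). In neither line did the groups overlap. ABCB4 fell by 0.75 in A375 (adjusted p = 0.00210), from 12.1 to 7.20 CPM. In SK-MEL-28, ABCA12, a lipid carrier of skin, fell by 0.61 (adjusted p = 0.00618), and CFTR, the chloride channel of the ABCC family, fell from 16, 17 and 13 counts to 4, 0 and 1 (log2 fold change -3.06, standard error 0.71, adjusted p = 0.00936), which are low counts. Of 34 tested for a difference between the lines, 3 were called (8.82%, beside 5.62% of all genes), ABCA10 (0.66), ABCA2 (-0.41) and ABCF3 (-0.26). ABCC6, a neighbour of ABCC1 with pseudogene copies, had 21 to 39 counts per library in A375 and 37 to 82 in SK-MEL-28.

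**Figure D5:**
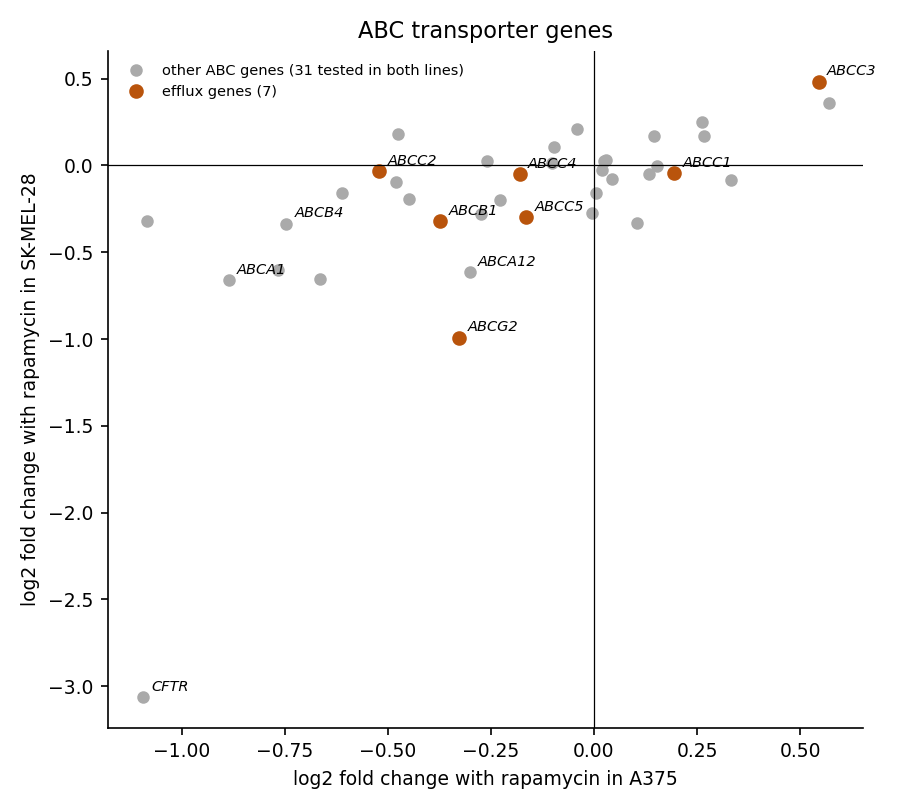
Log2 fold change with rapamycin in A375 (x axis) and SK-MEL-28 (y axis) for the 7 efflux genes (orange) and the 31 other ABC genes tested in both lines (grey). ABCC3 lay highest on the y axis (0.48), ABCG2 lower than the other efflux genes (-0.99), and CFTR, on few counts, at -3.06.

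Among 17 genes known to control efflux genes, 16 were tested. In A375, 2 were called, both lower with rapamycin (12.5%, beside 2.80% of all genes called lower), and without the fold threshold 4 rose, against 14.3% of all genes, and 3 fell, against 13.8%. In SK-MEL-28, 1 was called, lower (6.25%, beside 3.14%), and without the threshold 2 rose, against 8.83%, and 4 fell, against 10.1%. EPAS1, the HIF2 alpha subunit, fell in both lines, by 0.85 in A375 (standard error 0.12, adjusted p = 0.000281) and by 1.39 in SK-MEL-28 (0.13, adjusted p = 8.20e-06). HIF1A, the HIF1 alpha subunit, went from 500, 479 and 502 CPM to 312, 314 and 309 in A375 (log2 fold change -0.66, adjusted p = 5.55e-07) and from 364, 334 and 352 to 314, 292 and 291 in SK-MEL-28 (-0.23, adjusted p = 0.00778). The groups did not overlap in either line, and the response of HIF1A differed between them by 0.44 (standard error 0.062, adjusted p = 0.000666). HIF1A was the 1 of 16 called for this difference (6.25%), near the 5.62% of all genes. NR1I2, the xenobiotic receptor that induces ABCB1 in liver and gut, had 0 to 10 counts per library. AHR, the aryl hydrocarbon receptor, went from a mean of 153 to 121 CPM with rapamycin in A375. In SK-MEL-28 AHR went from 126 to 104 CPM. The treatments did not overlap in either line, AHR was called in neither, and its part in the results was not tested. YBX1 had the highest level per length of this list, 238 CPM per kb over 12 libraries.

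Of 5 proteins that anchor efflux pumps in the membrane, PDZK1, a scaffold with PDZ domains, was the 1 called in either line, where 5.89% of all genes were called in A375 and 4.99% in SK-MEL-28. It fell by 1.01 in A375 (standard error 0.21, adjusted p = 0.00317), from 3.92 to 1.94 CPM, and by 1.43 in SK-MEL-28 (0.22, adjusted p = 0.000553), from 4.36 to 1.62 CPM. Its reads are uncertain because near-identical pseudogene copies exist. The responses of 3 of the 5 differed between the lines, against 5.62% of all genes, and were lower in SK-MEL-28, namely SLC9A3R1, another PDZ scaffold (-0.45, adjusted p = 0.0160), EZR, which links membrane proteins to actin (-0.27, 0.0383), and MSN, its relative (-0.22, 0.0271). Over all genes 1130 were called for this difference, and 594 to 1315 with each library left out. MSN had the highest level per length of the list, 34.8 CPM per kb, with SLC9A3R1 left out because no length was matched to it.

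The genes whose pattern over the 12 libraries was most like that of each pump were found by the root mean square distance of centred log2 CPM among 12712 other genes with a mean of at least 100 counts (12713 for ABCG2, whose own mean was lower). Nearest to ABCC2 was HLA-DMB (distance 0.0994, beside a median over genes of 0.627), at 50.2 CPM in A375 with etoposide, 39.0 with rapamycin, and 92.7 and 96.8 in SK-MEL-28. IFITM3 and PDGFD followed. Nearest to ABCC3 was EXOSC5 (0.0637, median 0.319), at 33.2, 49.2, 33.4 and 47.4 CPM in the same order, then EEF1A1 and ACTG1. Nearest to ABCC5 were MEOX2 (0.0484, median 0.526), PHLDB2 and SLC2A3. For ABCG2 they were IRF9 (0.1399, median 0.404), PGAM1 and NCKIPSD, and for ABCB1 TMX4 (0.116, median 0.646), TOX2 and NFIL3. The differences between cell lines and treatments enter this measure together, and the points share libraries, so it is a description with no test. For ABCC1 the nearest were XPO6 (0.0483, median 0.217), PIGG and RERE, and for ABCC4 CASK (0.0609, median 0.246), MYCBP and LRPPRC.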

How the data were processed

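RNA-seq of polyA-enriched libraries was measured in 12 samples, 3 numbered libraries in each of 4 groups, which the study calls biological replicates; the p-values measure the spread between these libraries. The authors aligned reads to hg38 with HISAT2 and assembled genes with StringTie (Ensembl release 90 annotation), and deposited raw counts per gene, not normalized or pooled. How coverage became counts is not stated. Values of 2 (31041) outnumber values of 1 (28382) in the counts, so a count is not 1 read and intervals from counting alone were not given. Of 58312 rows, 5 named no gene and held at most 0.00529% of a library; 58307 were used.

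Tests used edgeR 4.0.16 in R 4.3.3 (filterByExpr with a minimum count of 10, TMM, glmQLFit and glmQLFTest) with p-values adjusted over all tested genes (Benjamini-Hochberg). Each line, and each treatment for the lines, was fitted on its own 6 libraries, and the difference between lines on all 12. Genes were called at the adjusted p and fold thresholds of the methods of the study. Standard errors are the log2 fold change over the square root of F. CPM used TMM library sizes. Lengths and positions came from GENCODE release 44 (GRCh38), matched for 128 of 129 listed genes, and 5 members had a RefSeq promoter entry. The members and the lists were chosen with earlier results of these data known. Genes named are the 8 members, ABCB4, ABCC6 and overlapping loci, list members called in both lines, up to 3 called in each line or for the difference, the highest per length, markers, and the 3 genes most like each member (CPM + 0.5 on the log2 scale). AHR was also named because GCGTG is the core of its element. NFKB1, NR1H2, ABCA3 and ABCB9 were also named, as listed genes that were higher with rapamycin. Alternatives were DESeq2 1.42.0 with its own filter in place of filterByExpr, RLE size factors, unadjusted totals, filters of 1 count in at least 1 library or 10 in every library, 1 fit of 12 libraries, a replicate block, counts halved, rows of one name summed, no fold threshold, a test against 1.5-fold, another length, and each library left out. The fits were tested on simulated data, and the outcome is not given here.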

Additional observations from a re-analysis of the deposited data

Results flagged for a closer look

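The response of ABCC2 to rapamycin differed between the cell lines by the test of the difference itself, with a log2 difference of 0.50 in SK-MEL-28 minus A375 (adjusted p = 0.000125 by edgeR). All 3 etoposide + rapamycin libraries of A375 lay below all 3 with etoposide, while in SK-MEL-28 the groups overlapped. The identity of the libraries labelled SK-MEL-28 is in doubt, as described above. The responses of HIF1A (0.44), DCT (1.82, on low counts in A375) and S100B (0.42) also differed between the lines. So did those of ABCA10, ABCA2, ABCF3, SLC9A3R1, EZR, MSN, GSR and SLCO4A1. The part of all these genes in the ABCC2 difference was not tested.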

How the results depend on the processing

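Of 616 values of single efflux genes under an alternative, 562 kept their direction and their side of the threshold, 39 lost the threshold, 6 gained it and 9 reversed, and the cause of each was not tested. The setting with no fold threshold reuses the main fit, so its values are the same by construction, and they are included in the 562. The number of efflux genes with an adjusted p under 0.05 in A375, 5, was 3 with DESeq2 and its own filter (39259 genes fitted, against 18844, so tool and filter changed together; ABCB1 and ABCC5 were lost), 2 when 1 count in any library sufficed, 2 with the replicate block and 2 to 4 with each library left out, while ABCC2 and ABCC3 passed in A375 under all of these. Without the fold threshold 5 efflux genes were called in A375 and 3 in SK-MEL-28, and with a test against 1.5-fold 0 were called in SK-MEL-28. All genes called numbered 5295 without the threshold and 168 with that test in A375, 3582 and 166 in SK-MEL-28, 6037 and 1070 between the lines with etoposide, and 7597 and 1199 with etoposide + rapamycin. For the difference between the lines 1130 genes were called, against 1736 with DESeq2 and its own filter (42867 genes fitted, against 20101), which called 2 efflux genes (ABCC2 and ABCC1), 658 when 1 count in any library sufficed and 620 with the replicate block.

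Leaving out each library gave 913 to 1202 genes called in A375, 816 to 954 in SK-MEL-28, 594 (without A375 etoposide + rapamycin replicate 3) to 1315 for the difference, 2264 to 2366 between the lines with etoposide and 2569 to 2748 with etoposide + rapamycin. The efflux genes called were 0 to 0, 1 to 1, 1 to 2, 3 to 4 and 3 to 3 in the same order, and those with an adjusted p under 0.05 were 3 to 3 in SK-MEL-28, 4 to 6 between the lines with etoposide and 4 to 4 with etoposide + rapamycin. Of the 32 ranks by level per length, 22 were kept with the longest transcript as length and 28 to 32 with each library left out. The values that reversed lay near 0. ABCG2 between the lines with etoposide + rapamycin was 0.00088 with library totals and -0.106 to 0.0807 with each library left out, ABCC4 in SK-MEL-28 was -0.0913 to 0.00599, and the ABCB1 difference was -0.0316 to 0.191.

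The replicate numbers do not pair the libraries, since same-numbered libraries had correlations of their deviations between -0.0463 and 0.0530. With the replicate number as a block, 1034 genes were called in A375, 897 in SK-MEL-28 and 620 for the difference, and 2423 and 2755 between the lines with etoposide and with etoposide + rapamycin. In A375 ABCB1, ABCC1 and ABCC5 then had adjusted p of 0.0683, 0.0670 and 0.0913, and ABCC3 between the lines with etoposide + rapamycin had 0.0470 (0.0495 with counts halved).

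ABCB5, ABCG2 and ABCB1 had the fewest counts of the efflux genes, and ABCB5 was not tested.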

Other observations

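Among 17 genes of glutathione synthesis and conjugation, which make substrates for the ABCC pumps, 0 were called in A375 and 1 in SK-MEL-28, beside 5.89% and 4.99% of all genes. Without the fold threshold, 0 rose and 4 fell in A375, against 14.3% and 13.8% of all genes, and 1 rose and 2 fell in SK-MEL-28, against 8.83% and 10.1%. The called gene was GGT1, a gamma-glutamyltransferase with near-identical copies, at 2.61 CPM with etoposide and 1.58 with rapamycin in SK-MEL-28 (log2 fold change -0.72, standard error 0.22, adjusted p = 0.0335). GSR, which regenerates reduced glutathione, differed in response between the lines by 0.38 (adjusted p = 0.0229 by edgeR). GSTP1 had the highest level per length of the list, 186 CPM per kb over 12 libraries. Of 20 drug transporters outside the ABC family, 14 were tested in A375 and 15 in SK-MEL-28 and 0 were called in either. At an adjusted p under 0.05 there were 3 and 2, against 28.1% and 19.0% of all genes, and SLCO4A1, an organic anion carrier, differed in response between the lines by -0.31 (adjusted p = 0.0118). MVP, the major vault protein, had the highest level per length, 46.6 CPM per kb.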
